A study of Mus musculus with 192 samples.

Results

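The Mx and Oas families were followed through 8 genes, Mx1, Mx2, Oasl1, Oasl2, Oas1a, Oas1g, Oas2 and Oas3, taken by symbol from a table of 23481 genes. All 8 had enough counts to be tested, as had 4720 genes in all. The cells were dendritic cells, which take up microbes and present antigen, grown with the growth factor GM-CSF from bone marrow of female C57BL/6J mice aged 6 to 8 weeks. They were exposed for 6 hours to 7 ligands of innate immune sensors. In the labels' spelling these are LPS (lipopolysaccharide), SeV, cGAMP (a cyclic dinucleotide), CpGB, PAM, HMW and a Zymosan that is described as depleted. The libraries form 64 groups of 3, namely unstimulated cells (Ctrl), the 7 ligands alone, the 21 pairs and the 35 triplets. All groups share the strain, the culture and the time, and doses are not given in the sources used here. The 3 libraries of a group are not stated to come from separate cultures or animals, so the p-values measure the spread between libraries, which may be technical.

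Mx and Oas proteins are antiviral effectors whose genes are switched on by interferon. Type I interferons bind the receptor chains Ifnar1 and Ifnar2, the kinases Jak1 and Tyk2 then pass the signal on, and a factor that holds Stat2 and Irf9 binds interferon-stimulated response elements in promoters. In dendritic cells, sensors of bacterial and viral products start this chain by inducing interferon-beta. Mx proteins are dynamin-like GTPases that block viral nucleocapsids. Only RNA was measured here, so whether these cells made working Mx protein is not known. Oas proteins sense double-stranded RNA, and the active enzymes make short oligoadenylates, which act as a second messenger. The Oas-like proteins carry the same fold with ubiquitin-like domains, and Oasl1 is known to restrain translation of Irf7.

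Total counts of unique molecular identifiers (UMIs, tags that mark single cDNA molecules) ran from 46564 to 610234 per library with a median of 171616. The 3 Ctrl libraries were among the shallow ones, at 61823 to 89530. Levels are in CPM, counts per 1000000 counts of a library whose size was scaled by edgeR's TMM factor. They are given as mean ± SD of 3 libraries and are compared between groups for 1 gene at a time. Of the listed markers of dendritic cells and macrophages, 7 of 8 were in the table with counts, and their summed level per group ran from 11682 to 16457 CPM. The largest part of that sum was Lyz2, at 5240 to 9450 CPM per group, whereas Itgax was at 191 to 537 CPM. Listed B cell markers summed to at most 18.7 CPM and T and NK cell markers to at most 2.95 CPM in any group. Hba-a1 and Hbb-bs, markers of red cells, were at 0. Neutrophil markers summed to 442 to 862 CPM and mast cell and basophil markers to at most 8.73 CPM. All 3 listed markers of plasmacytoid dendritic cells, cells known for making interferon, were detected, and their sum moved with the members, from 119 CPM in Ctrl, the lowest group, to 1112 CPM in PAM + LPS. Nearly all of it was Bst2, itself known as an interferon-induced gene (111 to 1104 CPM), while the defining markers Siglech and Ccr9 reached at most 7.82 and 8.04 CPM in any group. The part of these cells in the results was not tested. In bulk samples, fewer cells of a type and less RNA per cell cannot be told apart.

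A pair of libraries stood apart from their groups and bears on what follows. Each library was correlated with the means of all groups over the 1000 most variable genes. The library labelled HMW + SeV + CpGB replicate 1 correlated with the other libraries of its own group at r = 0.208 and with cGAMP + CpGB at r = 0.672. The library labelled HMW + cGAMP + CpGB replicate 1 correlated with its own group at r = 0.165 and with SeV + CpGB at r = 0.622. Once both were left out of the group means, the first was nearest to HMW + cGAMP + CpGB (r = 0.692). The second was still nearest to SeV + CpGB (r = 0.622) and not to HMW + SeV + CpGB. Whether the labels of these 2 libraries were exchanged was not tested, and the means of both triplets include them as labelled. The shortfall of the own group was 0.464 and 0.457 in these libraries and at most 0.248 in any other. Levels, likeness and all comparisons that hold triplets were also taken without these libraries, and the main changes are given below. Comparisons among Ctrl, single ligands and pairs hold neither library, but the fit gives each gene 1 spread over all groups. For these comparisons results are given with all libraries only, so calls and p-values may rest in part on the 2. This bears on Oasl1, whose levels in them were far from those of their groups. Resemblance to the own group was loose in general: 58 libraries were nearest to it, and 189 had it among the 10 nearest. As a wider alternative, 6 libraries were left out, namely these and the 4 with the largest shortfall once these were removed from the group means: LPS + SeV + CpGB replicate 3, Zymosan + SeV + cGAMP replicate 1, PAM + HMW + SeV replicate 3 and HMW + SeV + cGAMP replicate 1. The shortfall of HMW + SeV + CpGB replicate 2, 0.234 with all libraries, was 0.108 after that removal, and it was kept. In PAM + HMW + Zymosan, replicate 1 held higher levels of all members than the other libraries of its group, and it was also left out in turn.

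The genes lie in 3 clusters of the mouse genome (GENCODE M21 gene models, build mm10). Mx1 (chr16:97447035-97462907, minus strand) and Mx2 (chr16:97535308-97560900, plus strand) span 114 kb together, and the annotation types Mx2 as a polymorphic pseudogene and the other members as protein-coding. Oasl2 (chr5:114896936-114912234) and Oasl1 (chr5:114923240-114937915) are neighbours on the plus strand within 41 kb. Oas2 (chr5:120730333-120749853), Oas3 (chr5:120753098-120777661), Oas1g (chr5:120876142-120887613) and Oas1a (chr5:120896256-120907521) lie on the minus strand within 177 kb. Oas1a and Oas1g are close copies: of all stretches of 50 bases in the Oas1a transcripts, 57.6% also occur in those of Oas1g, and 45.2% of those of Oas1g occur in Oas1a. How the authors treated reads that match both is not given in the sources used here, so the split between these genes is uncertain. For Mx1 and Mx2 the shared share was 3.86% and 4.38%. Oasl1 overlaps the antisense gene Gm13822 and Oas2 overlaps Gm43068, both on the opposite strand, and whether counting used the strand is not given either.

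Because the members rose together, their promoters were searched for GAAANNGAAA, the core of an interferon-stimulated response element, on both strands. The RefSeq table (GRCm38.p6) held a promoter of 250 bases before to 50 bases after the start for 5 of the 8 members, and 3 of these held the motif. It occurred in 3.44% of the 32851 promoters in the table and in 5.09% of the 3614 tested genes with a promoter. The matches are descriptions of letters, not measured binding sites. The stretches around them are shown 5′ to 3′ on the gene's strand, with the matched bases in capitals (in Oas1a and Oas1g 2 overlapping matches).
Oas1a, chr5:120907526-120907585, minus strand: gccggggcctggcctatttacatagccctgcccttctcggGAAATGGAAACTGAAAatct
Oas1g, chr5:120887614-120887673, minus strand: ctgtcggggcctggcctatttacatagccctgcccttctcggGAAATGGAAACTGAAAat
Oas3, chr5:120777660-120777759, minus strand: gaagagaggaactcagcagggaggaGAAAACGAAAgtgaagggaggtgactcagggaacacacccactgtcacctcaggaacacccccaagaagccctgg
The matched stretch started 20 bases before the start in Oas1a, 18 in Oas1g and 75 in Oas3. In Oas1a and Oas1g the same 16 letters were in capitals, close to the start site. The windows of Oasl1 and Oasl2 held no match.

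The single ligands were first compared with Ctrl, to ask which of them raised the families at all. LPS, SeV, cGAMP and CpGB each raised all 8 members, and PAM, HMW and Zymosan raised 3, 4 and 2. No member was called lower, where 4.95% of all tests were. A gene was called when the adjusted p of edgeR's quasi-likelihood test was under 0.05 and the change was at least 2-fold. By that rule the share of all tested genes called higher was 14.6% with LPS, 10.5% with SeV, 11.7% with cGAMP, 10.8% with CpGB, 8.01% with PAM, 0.953% with HMW and 4.43% with Zymosan. The median log2 fold change of the members was 3.82 with LPS, 3.78 with cGAMP, 3.51 with SeV and 2.80 with CpGB, against -0.06, -0.09, -0.08 and -0.03 over all tested genes. With Oas1g, which had 0 counts in Ctrl, at its lower bound, these medians were 3.66, 3.74, 3.47 and 2.62, which puts cGAMP above LPS. With HMW, PAM and Zymosan it was 1.39, 1.04 and 0.82.

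Mx1, the member with most counts, was at 429, 499 and 249.6 CPM in the Ctrl libraries. With LPS it was at 5858, 5420.2 and 5544 CPM, with SeV at 6001, 5158 and 5154 CPM and with cGAMP at 5456, 4984 and 4640.1 CPM. All 9 of these libraries lay far above the 3 of Ctrl, and the log2 fold changes were 3.87 (SE 0.19, adjusted p = 6.48e-56), 3.83 and 3.71. CpGB gave an intermediate level of 2018, 3222 and 2707 CPM (log2 fold change 2.81). PAM libraries held 807, 875 and 789 CPM and HMW libraries 790.0, 1112 and 659.9 CPM. Both groups lay wholly above Ctrl, with log2 fold changes of 1.11 (SE 0.20, adjusted p = 8.44e-07) and 1.17 (SE 0.20, adjusted p = 2.32e-06). With Zymosan, at 579.7, 832 and 429 CPM, the groups overlapped and Mx1 was not called.

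Mx2, like Mx1, was raised less by CpGB than by LPS, SeV and cGAMP. Its 3 libraries were at 27.7, 37.4 and 57.6 CPM in Ctrl, at 476, 504 and 524 CPM with LPS, at 439.6, 544 and 516 CPM with SeV and at 605, 631 and 589 CPM with cGAMP. CpGB gave 194, 281 and 217 CPM. The 4 log2 fold changes were 3.53, 3.53, 3.81 and 2.44, all called, and none of these libraries overlapped Ctrl. The cGAMP libraries lay above those of LPS and SeV, unlike for Mx1, by differences that did not pass (-0.27 for LPS minus cGAMP, adjusted p = 0.349, and -0.27 for SeV minus cGAMP, adjusted p = 0.633). PAM, HMW and Zymosan gave means of 88.5 ± 33.5, 72.8 ± 23.6 and 82.7 ± 26.8 CPM, which were not called.

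**Figure D1:**
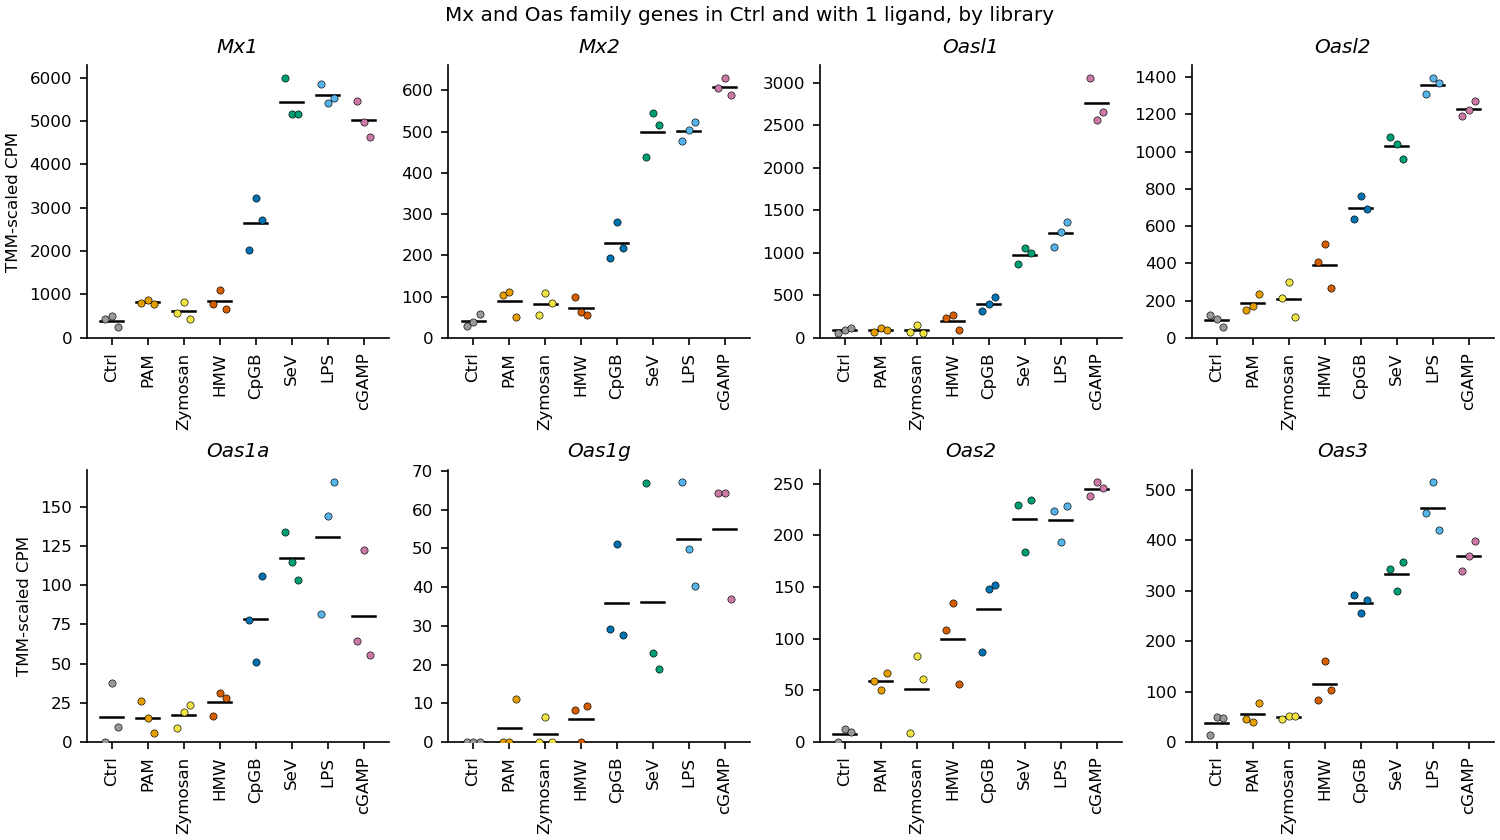
Levels of the 8 members in Ctrl and under the 7 single ligands, in CPM on linear axes from 0, with 1 point per library and a line at each mean of 3. Libraries of LPS, SeV, cGAMP and CpGB sit above Ctrl for every member, and for Oasl1 the cGAMP libraries (2565 to 3054 CPM) sit above those of all other single ligands.

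Oasl1 was also highest with cGAMP, with a wider gap. It was at 55.4, 87.3 and 115 CPM in Ctrl, 1072, 1241 and 1365 CPM with LPS, 869.6, 1058 and 999 CPM with SeV, and 3054, 2565 and 2652 CPM with cGAMP. The log2 fold change against Ctrl was 4.93 with cGAMP (SE 0.45, adjusted p = 3.79e-35), 3.78 with LPS, 3.44 with SeV and 2.19 with CpGB. Its neighbour Oasl2 did not share the gap. Oasl2 was at 125, 99.8 and 57.6 CPM in Ctrl, 1310.1, 1397 and 1369 CPM with LPS, 1079.9, 1042 and 961 CPM with SeV, and 1192, 1221 and 1270.5 CPM with cGAMP. Oasl2 was among the 2 members called with all 7 ligands, with log2 fold changes of 3.91 for LPS, 2.11 for HMW, 1.14 for Zymosan and 1.04 for PAM.

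The other gene called with all 7 ligands was Oas2, the form of the synthetase with a tandem catalytic unit. Its Ctrl libraries were at 0, 12.5 and 9.6 CPM and held 2 counts in all, so its folds have wide errors. It was at 245 ± 6.43 CPM with cGAMP, 216 ± 27.8 with SeV, 215 ± 18.5 with LPS and 129 ± 36.3 with CpGB. PAM brought it to 58.7 ± 8.21 CPM and HMW to 99.5 ± 40.1 CPM. On the log2 scale these rises were 2.79 for PAM (SE 1.10, adjusted p = 0.00528) and 3.54 for HMW (SE 1.09, adjusted p = 0.000323). In the Zymosan group 1 library, at 9.2 CPM, lay within Ctrl and the others were at 83.2 and 60.6 CPM (2.73, SE 1.11, adjusted p = 0.0154).

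Oas3, the largest synthetase, was at 13.9, 49.9 and 48 CPM in Ctrl. LPS brought it to 454, 515 and 421 CPM (log2 fold change 3.54), cGAMP to 369 ± 29.8 CPM, SeV to 333 ± 30.3 CPM and CpGB to 276 ± 18.5 CPM. HMW gave 83.2, 161 and 102 CPM, all above Ctrl (1.62, SE 0.50, adjusted p = 0.0318). That call was lost without any 1 of the Ctrl libraries (adjusted p = 0.28, 0.0519 and 0.0945 without replicates 1, 2 and 3). Oas1a, with 4 counts in Ctrl, was at 131 ± 43.5 CPM with LPS, 117 ± 15.4 with SeV, 80.7 ± 36.6 with cGAMP and 78.2 ± 27.5 with CpGB. Oas1g had 0 counts in Ctrl. Set against a floor of 3 counts over the group, it was at least 4.63-fold higher with cGAMP, 4.29-fold with LPS, 3.15-fold with CpGB and 2.67-fold with SeV. With these 4 ligands some calls of these low genes were lost when libraries were left out. Oas1a with cGAMP was lost without cGAMP replicate 2 (1.93, adjusted p = 0.0537), Oas1a with CpGB without replicate 3 of all groups, and Oas1g with SeV or CpGB without replicate 1 or 2 of all groups. With PAM, HMW and Zymosan it had 2, 3 and 1 counts, and no fold is given.

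The calls of the weaker ligands changed with single libraries. Without Ctrl replicate 3 the members called were 1 with PAM, 2 with HMW and 0 with Zymosan, and without Ctrl replicate 1 there was 1 with Zymosan. Without HMW replicate 2, 2 were called with HMW, and without Zymosan replicate 2, 0 with Zymosan. Without replicate 3 of all groups, 0 were called with PAM and with Zymosan. DESeq2 called 0 members with PAM, 2 with HMW and 0 with Zymosan. Levels scaled by RLE factors in place of TMM lowered the median gene by 0.13 with PAM and left 1 member called there. Mx1 and Oasl2 came to log2 fold changes of 0.97 and 0.91. Mx1 missed the fold alone (adjusted p = 1.75e-05), whereas Oasl2 missed the adjusted p as well (0.0523). Relative to that shifted median Mx1 and Oasl2 were at 1.10 and 1.04.

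Single ligands were then compared with each other, to see which ligands differed without recourse to Ctrl. LPS, SeV and cGAMP differed among themselves in Oasl1 alone by the rule above. Over the 21 comparisons 108 of 168 member tests were called, 25 for the ligand named first and 83 for the second, where 6.24% and 7.44% of all tests were called in those directions. Oasl1 was higher with cGAMP than with LPS by 1.15 on the log2 scale (SE 0.18, adjusted p = 8.02e-08) and higher than with SeV by 1.49 (SE 0.19, adjusted p = 2.85e-10). In both comparisons all 3 cGAMP libraries lay above all 3 of the other ligand. Without replicate 1 of all groups the difference from LPS was -0.99 for LPS minus cGAMP, just under 2-fold (adjusted p = 4.17e-08). CpGB was below the 3 strong ligands in Mx2 and Oasl1, and below LPS and SeV in Mx1. For Mx1 the difference was 1.06 for LPS minus CpGB (SE 0.12) and 1.02 for SeV minus CpGB (SE 0.13). The other members, Oasl2, Oas1a, Oas1g, Oas2 and Oas3, were not called between CpGB and any of the 3.

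In the pairs, 155 of the 168 member tests against Ctrl were called higher, where 13.7% of all tests were. In the triplets it was 277 of 280, where 15.7% were, and no member was called lower in either, where 8.44% and 10.2% were. The 13 uncalled tests in pairs fell in 4 groups, and 8 of them in PAM + Zymosan, in which no member was called, where 8.11% of all genes were. There Mx1 was at 463, 486 and 549 CPM, against 429, 499 and 249.6 CPM in Ctrl, and Oasl1 was at 94.7, 95.8 and 84.9 CPM, within the range of Ctrl. The remaining tests were Oas1a in PAM + HMW, Mx2, Oas1a and Oas1g in PAM + CpGB, and Oas1g in HMW + Zymosan. In the triplets the exceptions were Oasl1 and Oas1a in PAM + HMW + CpGB and Oas1g in PAM + Zymosan + CpGB. Oasl1 in PAM + HMW + CpGB had a log2 fold change of 1.11 (adjusted p = 0.0609), and it was called without the 2 libraries that stood apart (1.16, adjusted p = 0.00392).

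**Figure D2:**
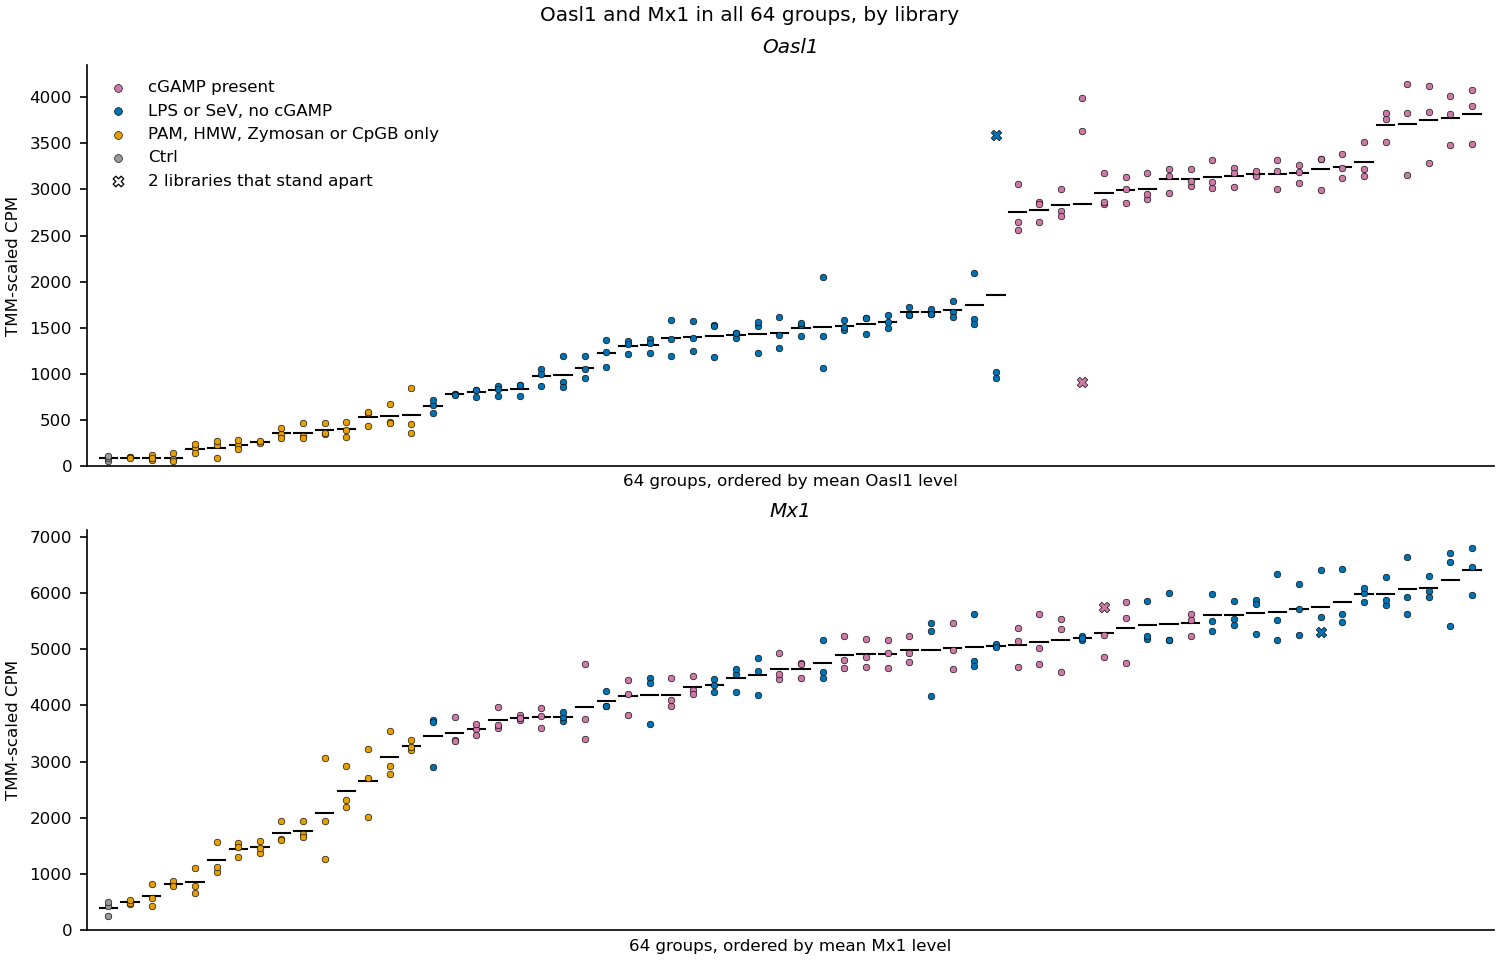
Levels of Oasl1 and Mx1 in the 64 groups, in CPM on linear axes from 0, with groups ordered by the mean of the gene shown, 1 point per library and a line at each mean of 3. Colours give the ligands in the group and crosses the 2 libraries that stand apart. Oasl1 means of the 22 groups with cGAMP (2757 to 3820 CPM) lie above those of the 42 groups without it, whereas Mx1 means with cGAMP (3516 to 5459 CPM) lie within the range of groups with LPS or SeV (3447 to 6410 CPM).

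Across all 64 groups the order of the levels was set out for each member. Ctrl had the lowest mean for 7 of the 8, and for Oas1a PAM (15.6 ± 10.4 CPM) lay next to Ctrl (15.7 ± 19.4 CPM), well within their spread. The highest mean of Mx1 was in PAM + SeV, at 5970.4, 6460.1 and 6799 CPM. The 7 groups made only of PAM, HMW and Zymosan had Mx1 means of 499.6 to 2095 CPM, and the 7 groups with CpGB but none of LPS, SeV and cGAMP had 1448 to 3280 CPM. Groups with LPS or SeV and no cGAMP started at 3447 CPM. Of these 3 ranges of Mx1, the first and the second overlapped and the third lay above both.

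Oasl1 was split by cGAMP. The 22 groups with cGAMP had means from 2757 CPM (cGAMP alone) to 3820 CPM (PAM + cGAMP + CpGB), and the 42 groups without it went up to 1855 CPM, in HMW + SeV + CpGB. That highest group held one of the libraries that stood apart. Its 3 libraries were at 3591, 955 and 1020.4 CPM, and those of HMW + cGAMP + CpGB were at 912, 3630.3 and 3993 CPM. Without replicate 3 of all groups, 21 of the 22 means with cGAMP lay above all means without it. The lowest was then 2271 CPM, against 2273 CPM in HMW + SeV + CpGB. With all libraries, 12 of the 66 with cGAMP lay above every library without it. Without the 2 libraries that stood apart, all 65 with cGAMP (lowest 2565 CPM) lay above all 125 without it (highest 2099 CPM). The highest mean without cGAMP was then 1746 CPM in PAM + LPS + SeV. No other member was split by a ligand in this way. For Oasl2, 11 of the 22 cGAMP groups lay above every group without cGAMP, and for Mx1, Mx2, Oas1a, Oas1g, Oas2 and Oas3 at most 1 did.

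Pairs were compared with each of their ligands alone, which uses no Ctrl library and asks what a second ligand added. Over 42 such comparisons 111 of 336 member tests were called higher, where 4.86% of all tests were, and 2 were called lower, where 2.52% were. A member was above both of its single ligands in 2 of 168 cases, where 0.353% of all genes were, and below both in 0, where 0.0504% were. Without the fold threshold 8 cases were above both, where 0.805% of all genes were, and still 0 below, where 0.0999% were.

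The 2 cases were Mx1 in PAM + HMW and Oasl1 in HMW + Zymosan. In PAM + HMW, Mx1 was at 1719.9, 1945 and 1659.8 CPM, above every library of PAM (789 to 875 CPM) and of HMW (659.9 to 1112 CPM). The difference was 1.11 from PAM (SE 0.14, adjusted p = 7.24e-11) and 1.04 from HMW (SE 0.14, adjusted p = 6.62e-11), close to the fold threshold. In HMW + Zymosan, Oasl1 was at 349.7, 360.0 and 471 CPM, above every library of HMW (92.9 to 274 CPM) and of Zymosan (60.6 to 147 CPM). RLE factors, library size alone or DESeq2 left 0 cases, and so did the fit without replicate 3 of all groups, while 4 were found without replicate 2 and 5 with no filter on low counts. The 8 cases without the fold threshold were Mx1, Mx2 and Oasl2 in PAM + HMW, Mx1, Oasl1 and Oas3 in HMW + Zymosan, and Oasl2 in PAM + cGAMP and LPS + cGAMP. In LPS + cGAMP, Oasl2 exceeded LPS by 0.57 (SE 0.14, adjusted p = 0.00294) and cGAMP by 0.72 (SE 0.14, adjusted p = 2.94e-05).

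**Figure D3:**
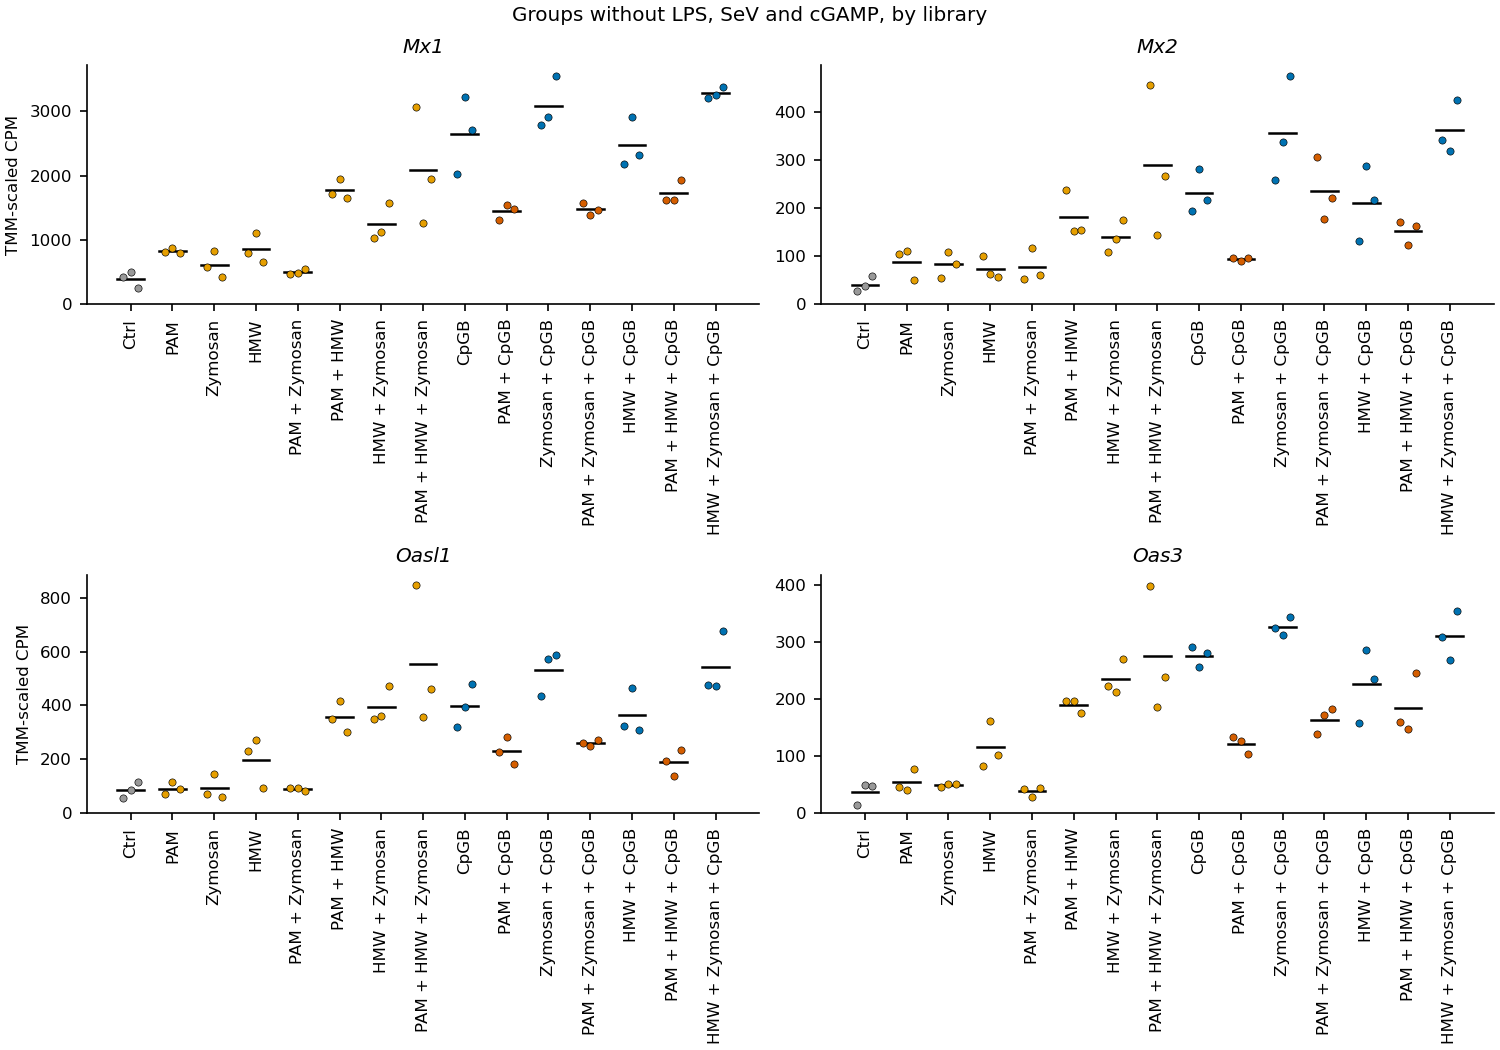
Levels of Mx1, Mx2, Oasl1 and Oas3 in Ctrl and in groups made of PAM, HMW, Zymosan and CpGB, in CPM on linear axes from 0, with 1 point per library and a line at each mean of 3. Mx1 in PAM + HMW (1659.8 to 1945 CPM) lies above both single ligands, in PAM + Zymosan (463 to 549 CPM) it overlaps Ctrl (249.6 to 499 CPM), and in PAM + CpGB (1307 to 1547 CPM) it lies below CpGB alone.

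PAM given with CpGB left some members lower than CpGB alone. Of the 8, 2 were called lower, where 0.678% of all genes were, and 4 were lower by the adjusted p alone, where 1.27% were. Mx2 was at 194, 281 and 217 CPM with CpGB and at 95.4, 88.8 and 96 CPM with PAM + CpGB, lower by -1.33 on the log2 scale (SE 0.31, adjusted p = 0.0011). Oas3 was at 291, 255 and 281 CPM with CpGB and at 134, 126 and 104 CPM with the pair (-1.18, SE 0.28, adjusted p = 0.00163). These were the 2 called falls. Without replicate 3 of all groups, Mx2 was at -1.45 (adjusted p = 0.0567) and Oas3 at -1.07 (adjusted p = 0.106), and without replicate 2, Mx2 was at -1.16 (adjusted p = 0.0949). Mx1 and Oasl2 passed the adjusted p with smaller differences, -0.88 (SE 0.14) and -0.79 (SE 0.19), and the libraries did not overlap for either. Oasl1 was also lower in all 3 libraries, by a value of -0.81 that did not pass (adjusted p = 0.162). The spread of Oasl1 in the fit includes the 2 libraries that stood apart, and this comparison is given with all libraries only. The same direction appeared when PAM joined Zymosan + CpGB. Mx1 was at 2782, 2915 and 3553 CPM with Zymosan + CpGB and at 1582, 1383 and 1467 CPM with PAM + Zymosan + CpGB (-1.07, SE 0.13, adjusted p = 9.75e-11). Oasl1 was lower there by -1.04 (SE 0.26, adjusted p = 0.00669), these being the 2 called there, where 0.869% of all genes were, and Oas3 and Oasl2 by -0.97 and -0.63, under 2-fold. Without replicate 3 of all groups, Oasl1 there was at -1.01 (adjusted p = 0.169) and Mx1 at -0.95. When PAM joined HMW + CpGB, Mx1 was lower by -0.52 (adjusted p = 0.00952) and Oasl1 by -0.94 (adjusted p = 0.0413). These were the 2 of 8 members that passed the adjusted p there, both under 2-fold. The share of all genes is not given for that comparison, so these falls cannot be set against it. When PAM joined LPS + CpGB, SeV + CpGB or cGAMP + CpGB, 0 of the 8 members passed the adjusted p, where 0.0847%, 0.636% and 0.508% of all genes did, and the median differences were 0.05, -0.05 and 0.00028.

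Zymosan lowered Mx1, and no other member, in 3 of the 6 pairs at an adjusted p under 0.05, so 1 of 8 members in each. The share of all genes lower by that rule was 2.1% in Zymosan + SeV, 1.38% in Zymosan + cGAMP and 2.1% in PAM + Zymosan. Mx1 was at 3738, 2903 and 3700.1 CPM in Zymosan + SeV, below all 3 SeV libraries (-0.63, SE 0.13, adjusted p = 7.4e-05). In Zymosan + cGAMP it was at 3600.1, 3962 and 3644 CPM, below all 3 cGAMP libraries (-0.43, adjusted p = 0.0172), and in PAM + Zymosan it was below PAM (-0.70, adjusted p = 0.00145). None of the 3 reached 2-fold. Zymosan joined to LPS gave Mx1 at 4786, 5625 and 4700.0 CPM, overlapping LPS, and joined to CpGB it did not pass either (0.21, adjusted p = 0.414). In HMW + Zymosan, Mx1 was higher than with HMW (0.55, adjusted p = 0.00296).

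To ask whether the log2 effects of 2 ligands were additive, the interaction was taken as the pair minus both ligands plus Ctrl. It was negative for 75 of 168 member tests at an adjusted p under 0.05, where 3.5% of all tests were, and positive for 0, where 1.08% were. All 8 members were below the sum in LPS + SeV, LPS + cGAMP, LPS + CpGB and SeV + cGAMP, and 7 in SeV + CpGB and cGAMP + CpGB. Mx1 was below the sum in 18 of the 21 pairs, Oas2 in 13, Oasl2 in 12, Oas3 in 9, Mx2 in 7, Oasl1 in 6, and Oas1a and Oas1g in 5 each. The count of Oasl1 rests on a spread that includes the 2 libraries that stood apart. In LPS + SeV the Mx1 interaction was -3.71 (SE 0.22, adjusted p = 2.74e-39), where the ligands alone had changed it by 3.87 and 3.83. No interaction passed in PAM + HMW, HMW + Zymosan and Zymosan + CpGB. The sums for Oas2 and Oas1g rest on 2 and 0 counts in Ctrl.

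**Figure D4:**
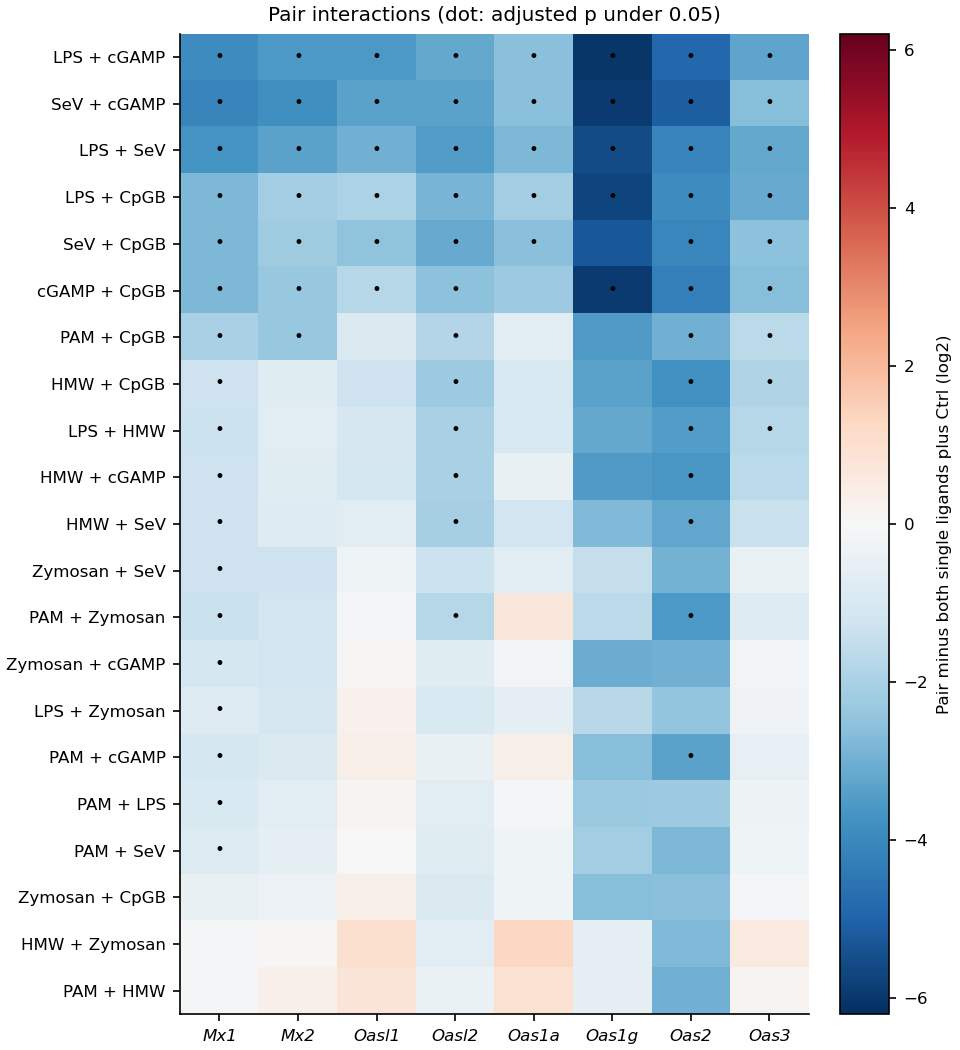
Pair interaction on the log2 scale, as colour, for the 8 members (columns) in the 21 pairs (rows), where a dot marks an adjusted p under 0.05 and 0 stands for a pair at the sum of its single-ligand effects. The medians over the members are lowest for the pairs among LPS, SeV and cGAMP (-3.57 to -3.39), and those of PAM + HMW and HMW + Zymosan carry no dot.

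Triplets were compared with each of their pairs. Over 105 comparisons 119 of 840 member tests were called higher, where 2.28% of all tests were, and 2 lower, where 1.08% were. The lower calls came to 5 without replicate 1 of all groups and to 1 without replicate 3. Oasl1 had 28 of the 119, Mx2 19, Mx1 18 and Oasl2 16. Without the 2 libraries that stood apart 117 were called, all among the 119. Of these, 27 were in Oasl1 and 6 in Oas1g, which had 7 with all libraries. No triplet was above or below all 3 of its pairs by the 2-fold rule for any member, where 0.0115% and 0.0% of all genes were. Without the fold threshold Oasl2 in PAM + HMW + Zymosan was above its 3 pairs, where 0.0297% of all genes were, at 1244, 646 and 798 CPM. In that triplet replicate 1 stood high for all members (Mx1 3069 CPM against 1265 and 1950.2). The 8 members were called higher than in PAM + Zymosan, where 4.83% of all genes were, and the calls of Oas1a and Oas1g were lost without that library.

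The libraries that stood apart decided some of these calls. Oasl1 in HMW + SeV + CpGB was above SeV + CpGB by 1.21 (adjusted p = 1.43e-05) with all libraries and by 0.36 (adjusted p = 0.751) without the 2 libraries. In PAM + HMW + SeV against PAM + HMW, the calls of Oasl2, Oas1g and Oas3 were lost without the 6 libraries.

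Averaged over the 15 pairs of the other 6 ligands, adding 1 more ligand raised 8 members when it was LPS, 7 when it was cGAMP or SeV, 5 with HMW, 3 with CpGB and 1 with PAM. Zymosan raised 0 and lowered 1. These calls rest on the adjusted p alone, by which the shares of all genes called higher were 23.9% for LPS, 23.9% for cGAMP, 12.5% for SeV, 3.71% for HMW, 11.3% for CpGB, 14.5% for PAM and 17.2% for Zymosan. The share called lower with Zymosan was 16.5%. These averages use no Ctrl and no single-ligand library.

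The size of the average was largest for Oasl1 with cGAMP, at 2.23 on the log2 scale (SE 0.06, adjusted p = 3.05e-103), a 4.68-fold rise. Without the 2 libraries that stood apart it was 2.25, and over all members and ligands the averages then moved by -0.060 to 0.027, with no call lost and 1 gained (Oas3 with CpGB, 0.14, adjusted p = 0.0447). Adding cGAMP raised Oasl1 in all 15 triplets and all 6 pairs at an adjusted p under 0.05, where 6.36% and 10.5% of the tests of all genes were higher. The next largest averages were Oasl1 with LPS (1.12, SE 0.06), Oasl2 with cGAMP (1.08, SE 0.04), Oasl2 with LPS (0.99, SE 0.04) and Mx2 with cGAMP (0.81, SE 0.05). For SeV the averages were 0.79 for Oasl1, 0.73 for Mx2 and 0.66 for Mx1. HMW gave small rises in Oasl1 (0.28), Oasl2 (0.26), Oas3 (0.20), Mx2 (0.16) and Mx1 (0.13). The rise of Mx2 with HMW was no longer called without PAM + HMW + Zymosan replicate 1 (0.14, adjusted p = 0.0871). Those of Mx1, Mx2 and Oas3 were not called without replicate 1 of all groups, and of the 5 only Oasl2 was still called without replicate 3 of all groups. The single call with PAM was Oasl2 (0.14, SE 0.04, adjusted p = 0.00158), which was lost without replicate 1 of all groups (0.05, adjusted p = 0.465).

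The fall with Zymosan was in Mx1, by -0.26 on the log2 scale (SE 0.03, adjusted p = 3.99e-13), a level 0.833 times that of the pairs. Mx1 was lower in 12 of the 15 triplets with Zymosan than in their pairs, passed an adjusted p of 0.05 in 6, and in 11 all 3 libraries with Zymosan lay below all 3 without it. Over these 15 comparisons, 1.84% of the tests of all genes were lower at that p, and in 9.51% all 3 libraries lay lower. In the average, 1 of 8 members was lower beside the 16.5% of all genes given above. In 1 triplet it was higher at that threshold. In PAM + Zymosan + SeV it was at 4254, 3990.5 and 3994 CPM, against 5970.4, 6460.1 and 6799 CPM in PAM + SeV (-0.65, SE 0.12, adjusted p = 2.08e-05). Mx2, the neighbour of Mx1, had an average of 0.05 with Zymosan that did not pass (adjusted p = 0.468).

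**Figure D5:**
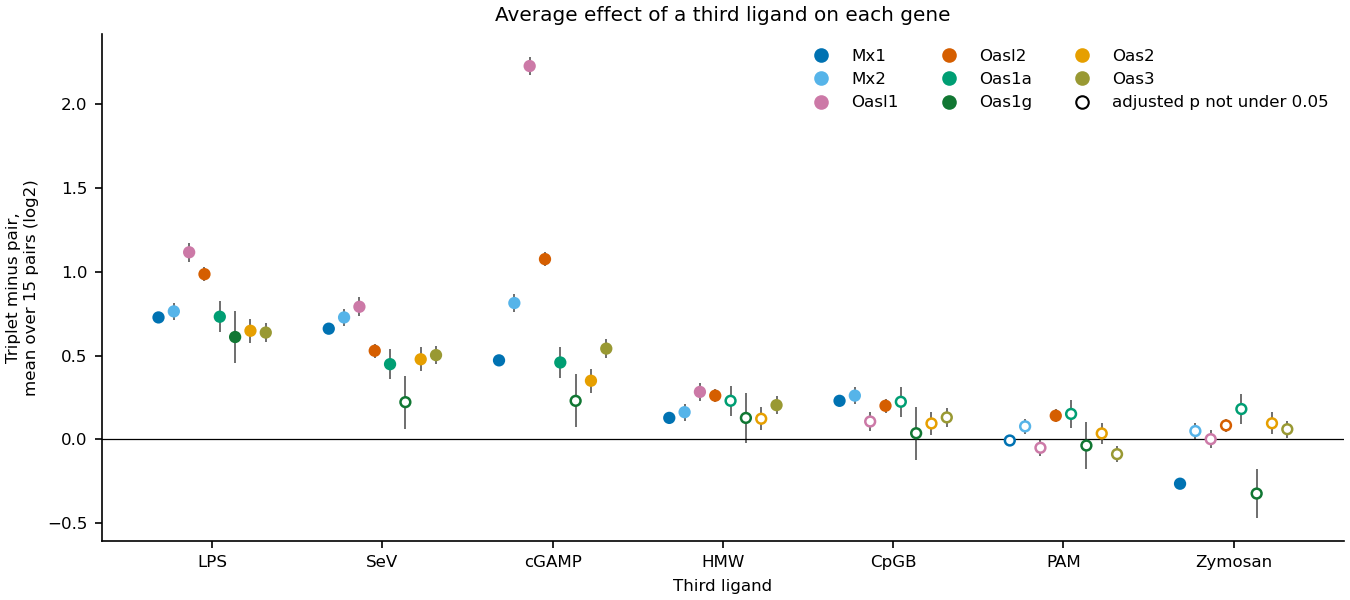
Mean log2 change when 1 more ligand joined the 15 pairs of the other 6 ligands, for the 8 members and 7 ligands, with bars of 1 standard error and open points where the adjusted p was not under 0.05. Oasl1 with cGAMP (2.23) stands above all other values, and Mx1 with Zymosan (-0.26) is the 1 called fall.

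The other genes of the interferon pathway were read from a list of 17, of which 15 were tested. Called higher against Ctrl were 10 with SeV, 10 with cGAMP, 9 with LPS, 8 with CpGB, 4 with PAM, and 3 each with HMW and Zymosan, with 0 lower. Of all tested genes, 10.5% were called higher with SeV, 11.7% with cGAMP, 14.6% with LPS and 10.8% with CpGB. With PAM, HMW and Zymosan it was 8.01%, 0.953% and 4.43%, and 4.95% of all tests were called lower. Ifnb1, which encodes interferon-beta, was at 12 ± 2.17 CPM in Ctrl and was called with SeV (251 ± 8.63 CPM) and cGAMP (196 ± 78.8 CPM), with log2 fold changes of 4.33 and 3.93. With LPS it was at 13.4 ± 11.8 CPM and not called, although all 8 members were. Stat2, a part of the factor that interferon switches on, was called with all 7 ligands. It was at 84.9 ± 54.9 CPM in Ctrl, 663 ± 42.7 with LPS and 179 ± 62.9 with Zymosan. Irf7, the factor that amplifies interferon production, was at 133 ± 60.1 CPM in Ctrl, 1593 ± 42.8 with LPS and 334 ± 133 with HMW, and was called with 5 ligands. The receptor genes Ifnar1 and Ifnar2 were not called with any single ligand. Oas1b, a relative of Oas1a that is typed as a polymorphic pseudogene, went from 10.6 ± 9.74 CPM in Ctrl to 146 ± 19.5 with LPS.

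Genes with the most similar pattern were taken by Pearson's r of the mean log2 CPM over the 64 groups, which share depth and scaling. For Mx1 they were Usp18 (r = 0.971), Phf11b and Daxx, and for Mx2 Ifit1 (0.981), Nt5c3 and Isg20. For Oasl1 they were Ifih1 (0.967), Sp140 and Rsad2, and for Oasl2 Isg15 (0.976), Trim30a and Ifi47. Oas3 was most like Ifi204 (0.977), Oas2 most like Igtp, and Oas1a and Oas1g most like Ifitm3 (0.938 and 0.896). An r of at least 0.9 was reached by 113 genes for Mx1, 34 for Oasl1 and 0 for Oas1g, whose counts are the lowest. Without the 2 libraries that stood apart, the first gene was Irf7 for Mx1 (r = 0.971) and the same gene for the other 7 members. Among the members themselves, the highest r was 0.967 for Mx1 with Mx2 and the lowest 0.732 for Oasl1 with Oas1g.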

How the data were processed

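The deposited values are whole-number UMI counts per gene symbol without normalization, made by the authors from template-switch cDNA libraries pooled before amplification. The submitters' processing notes name BWA 0.7.15 and the build mm10, and no rule for reads matching several genes is given in the sources used here. With edgeR 4.0.16 in R 4.3.3, filterByExpr kept 4720 genes (95.7% of UMIs), and TMM factors and 1 quasi-likelihood model with a coefficient for each of the 64 groups were fitted to all libraries (128 residual degrees of freedom). P-values were adjusted by Benjamini-Hochberg over all tested genes within each contrast. Calls needed an adjusted p under 0.05 and a log2 fold change of at least 1, except interactions and the averages over added ligands, which needed the p alone. Above both (or all 3) required each contrast past the fold and the largest p adjusted under 0.05. Resemblance and likeness used log2 CPM with a prior count of 2. Intervals were not computed; 3 counts served as the floor for groups at 0, which covers counting error only.

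The members, the pathway list and the named genes, which were the members, the pathway genes, Oas relatives and the 3 genes of highest r for each member, were chosen with earlier results of these data known. Some genes of the pathway list are counted but not reported by name here. Alternatives were RLE factors, library size alone, DESeq2 1.42.0, no filter, libraries thinned to 46564 counts, a replicate block, leaving out replicates, and fits on 1 ligand and Ctrl. Leaving out the libraries that stood apart was added after seeing the data. Same-numbered libraries of different groups did not deviate together (mean r 0.00828, over 0.1 in 0 of 2016 group pairs), so replicate numbers were not taken as pairs. The fitting code was tested on simulated data.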

Additional observations from a re-analysis of the deposited data

How the results depend on the processing

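The named values were the members called against Ctrl with 1 ligand, the called averages over added ligands, and further values that the text names. The called ones were chosen for passing the threshold, so a turn of direction was unlikely beforehand. None of the 102 named values turned its direction, though some uncalled values near 0 did, such as Mx2 with added PAM (0.08, and -0.02 under library size alone). Of their 1313 alternative values, 1224 kept their side of the threshold, 84 lost it and 5 gained it. With PAM, RLE factors, library size alone or a fit on PAM and Ctrl alone left 1 member called, and DESeq2 or thinned libraries 0. With HMW, thinning, DESeq2 or the fit on that ligand and Ctrl left 2. With Zymosan, thinning or that fit left 1 and DESeq2 0, and with CpGB that fit left 5. Members above both single ligands were 0 under RLE factors, library size alone and DESeq2, 1 in thinned libraries, 5 with no filter on low counts and 8 with no fold threshold. Without the fold threshold 1 triplet was above all 3 of its pairs. Lower calls of triplets against pairs were 1 under library size alone and 0 after thinning. The averages over added ligands held 5 lower calls under library size alone and 2 without the 6 libraries that stood apart. The 5 were Mx1, Oasl1 and Oas3 with PAM and Mx1 and Oas1g with Zymosan, where the scaling moved the median gene by -0.0994 and -0.017. Against Ctrl, RLE factors moved the median gene by -0.0723 to -0.144 and library size alone by -0.0312 to -0.296. Apart from the smaller sample in fits on 1 ligand and the fewer counts after thinning, the cause of these changes was not tested.

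Leaving out replicates gave 0 to 3 members with PAM, 2 to 5 with HMW, 0 to 2 with Zymosan, 7 to 8 with SeV, cGAMP and CpGB, and 8 with LPS. It gave 0 to 4 above both single ligands, 1 to 2 pair falls, 1 to 5 triplet falls and 1 to 2 lower averages (2 without PAM + HMW + Zymosan replicate 1). Negative interactions ranged from 57 to 74. With a replicate block, all 102 named values kept their side, 3, 4 and 2 members were called with PAM, HMW and Zymosan, and 76 interactions were negative. Depth limits Oas1a, Oas1g and Oas2 most, through 4, 0 and 2 counts in Ctrl.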

Other observations

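Genes upstream of the members were read in the same averages over the 15 pairs, with p-values from the edgeR model of all libraries, adjusted over all tested genes. Adding cGAMP raised Ifnb1, the interferon-beta gene, by 3.21 on the log2 scale (SE 0.15, adjusted p = 2.91e-83), and adding SeV raised it by 2.26 (SE 0.15, adjusted p = 3.46e-48). LPS and CpGB raised it by 0.81 and 0.95, and with PAM the value was 0.02 (adjusted p = 0.958). Irf7, which amplifies interferon production, had its highest average with LPS (0.84, SE 0.04), above cGAMP (0.60) and SeV (0.53), so the ligands ranked differently for these genes. The differences between those averages were not tested. Socs1, a brake on the Jak kinases, was raised by cGAMP alone against Ctrl by 3.89 (SE 0.75, adjusted p = 4.88e-12). In the averages over pairs it fell by 0.39 when cGAMP was added and rose by 0.55 and 0.52 with LPS and SeV. Ifnar1, a receptor chain, fell by 0.63 with cGAMP (SE 0.07, adjusted p = 3.87e-16) and had a value of 0.37 with PAM. Tyk2, a kinase at the receptor, fell by 0.59 with Zymosan (SE 0.10, adjusted p = 2.48e-07), by 0.50 with PAM and by 0.32 with cGAMP.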
